A study of Mus musculus with 18 samples.

Results

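The glycolytic enzymes examined here are 10 genes of sugar uptake and breakdown, Slc2a1, Hk2, Gpi1, Pfkl, Aldoa, Gapdh, Pgk1, Pgam1, Pkm and Ldha, taken by gene symbol from a count table of 55416 genes. They occupied 11 rows of the table, because Aldoa had a second row (ENSMUSG00000114515) with 0 to 4 counts per library. That row was not tested, and Aldoa below is ENSMUSG00000030695. The other 10 rows passed the filter on low counts.

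Splenic monocytes isolated by cell sorting were profiled by RNA-seq. The mice had received IVIg, a preparation of immunoglobulin G pooled from many donors, or phosphate-buffered saline (PBS), and the labels give day 3. The 6 groups, of 3 mice each by the design text, were Dectin-1 knockout mice with IVIg and with PBS, FcgRIIb knockout mice with IVIg and with PBS, and wild-type C57BL/6 mice (WT) with IVIg and with PBS. Dectin-1, encoded by Clec7a, recognises fungal beta-glucans. FcgRIIb, whose gene is Fcgr2b, is an Fc receptor that dampens signalling. The series addresses the part of these receptors in the effect of IVIg on monocytes. Both knockouts are labelled -/- with no restriction to a cell type. The dose, sex and age of the mice and the gate of the sort were not given in the sources used here.

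Glycolysis turns glucose into pyruvate in the cytosol and yields ATP without oxygen. Slc2a1 carries glucose into the cell, hexokinase traps it as glucose 6-phosphate, and the following enzymes rearrange, split and oxidise it, after which lactate dehydrogenase can reduce pyruvate to lactate. Myeloid cells raise this flux when activated, and in trained immunity, a lasting change of monocytes after beta-glucan recognition by Dectin-1, the pathway is under the mTOR and HIF-1 regulators. HIF-1 binds a core motif read as ACGTG or GCGTG near many glycolysis genes.

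Total counts were 16996494 to 48958909 in 17 libraries and 719494 in FcgRIIb knockout PBS replicate 2. In that library 3 counts, the limit that a count of 0 allows, equal 4.17 CPM (counts scaled by library size with TMM factors), and the 10 genes together held 1145 counts. All 12 monocyte markers were detected, with a summed level of 23388 to 44505 CPM. B cell markers summed to 523 to 1491 CPM in FcgRIIb knockout libraries and 228 to 586 CPM in WT libraries, and T cell markers to 15.2 to 76.5 CPM over all libraries. Clec7a had 0.247 to 4.05 CPM in Dectin-1 knockout libraries and 360 to 820 CPM in WT libraries. Fcgr2b had 137, 250 and 187 CPM in FcgRIIb knockout PBS libraries and 208, 302 and 299 CPM in WT PBS libraries. The Fcgr2b groups overlapped, and the deleted part is not given, so the FcgRIIb label was not checked by this count.

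Of these genes, 9 of 10 held the HIF-1 core on either strand in at least 1 RefSeq promoter window (250 bases before to 50 after the start, GRCm38.p6), against 46.7% of 27025 genes. The exception was Gpi1, whose window held none. Among windows, 11 of 14 of these genes and 43.8% of all 32851 held it, and the mean G+C content was 62.5% in the 14 windows of these genes and 53.8% in all. Aldoa windows 2 and 3 overlap and hold the same match, which is counted in both. Matches to ACGTG and GCGTG and their reverse complements CACGT and CACGC may overlap, so that CACGTG counts as 2. The 250 bases before the start are shown for 4 genes, Ldha and Pgk1, whose levels ran with most of the others across libraries, and Slc2a1 and Hk2, whose levels did not. Capitals mark the core.
Ldha, chr7:46845554-46845803, plus strand: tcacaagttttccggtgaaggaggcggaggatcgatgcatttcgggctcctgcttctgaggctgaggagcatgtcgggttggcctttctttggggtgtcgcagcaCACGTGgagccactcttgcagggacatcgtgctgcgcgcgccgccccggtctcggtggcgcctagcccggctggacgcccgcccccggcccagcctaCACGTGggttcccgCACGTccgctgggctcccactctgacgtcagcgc
Pgk1, chrX:106186850-106187099, plus strand: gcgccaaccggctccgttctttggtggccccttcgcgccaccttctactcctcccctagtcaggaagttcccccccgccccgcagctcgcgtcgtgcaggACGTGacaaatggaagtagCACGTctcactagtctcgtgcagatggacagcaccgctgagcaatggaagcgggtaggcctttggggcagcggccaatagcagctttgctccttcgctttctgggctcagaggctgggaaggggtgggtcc
Slc2a1, chr4:119108495-119108744, plus strand: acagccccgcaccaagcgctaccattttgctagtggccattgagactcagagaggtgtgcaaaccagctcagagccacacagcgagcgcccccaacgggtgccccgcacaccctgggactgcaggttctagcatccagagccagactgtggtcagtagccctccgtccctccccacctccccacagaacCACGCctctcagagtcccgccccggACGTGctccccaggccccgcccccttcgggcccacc
Hk2, chr6:82774455-82774704, minus strand: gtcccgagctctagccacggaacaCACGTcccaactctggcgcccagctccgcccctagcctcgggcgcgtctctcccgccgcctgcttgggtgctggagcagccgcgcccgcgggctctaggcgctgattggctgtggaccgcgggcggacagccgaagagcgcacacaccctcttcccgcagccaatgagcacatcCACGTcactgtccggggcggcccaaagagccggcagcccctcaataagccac
The Ldha window shown had 7 matches, of which 5 lie before the start, and the other 3 windows shown had 2 each. A second Ldha window, not shown, had 2 matches, of which 1 lies before the start. These are matches of letters, with no measurement of binding, and genes of both kinds held them.

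Per unit of exon length, Pkm and Aldoa were the most abundant of the 10 genes. Pkm, the pyruvate kinase that makes pyruvate, averaged 625 ± 136 TPM (TPM, counts divided by the deposited exon length and scaled to a fixed total per library; SD, n = 18 libraries). Aldoa, the aldolase that splits fructose 1,6-bisphosphate, averaged 435 ± 90.2 TPM. Pkm was above Aldoa in 18 of 18 libraries, and Aldoa above Gapdh in 17.

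Gapdh, which oxidises glyceraldehyde 3-phosphate, averaged 255 ± 45.7 TPM, Ldha 241 ± 38.3 TPM and Gpi1, the glucose 6-phosphate isomerase, 223 ± 32.3 TPM. These 3 lay within one another's spread, as Gapdh exceeded Ldha in 13 of 18 libraries and Ldha exceeded Gpi1 in 13. Pgk1, the first ATP-making kinase of the pathway, averaged 182 ± 20.3 TPM and was below Gpi1 in 15.

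The remaining 4 genes had the lowest levels. Hk2, a hexokinase, averaged 43.6 ± 15.9 TPM and Pgam1, the phosphoglycerate mutase, 43.1 ± 7.49 TPM, with Hk2 higher in 8 of 18 libraries. Slc2a1 averaged 23.2 ± 5.19 TPM and Pfkl, a subunit of phosphofructokinase, 20.0 ± 5.60 TPM, with Slc2a1 higher in 13 of 18.

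The order below the first 3 genes depended on the length used. The deposited length sums all exons of all transcripts, 4133 bases for Gapdh, against 1420 for its principal transcript (GENCODE M21). With the principal length, a calculation added after the deposited lengths were seen, Gapdh stood at 61.3% of the Pkm level, against 43.3% with the deposited length. Pkm, Aldoa and Gapdh kept their order. In CPM per kilobase of the principal transcript, Gpi1 averaged 208 and Ldha 190, Pgam1 19.9 and Hk2 18.9, and Pfkl 14.6 and Slc2a1 10.2, so that each of these pairs changed places.

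Within their enzyme families the 10 genes were not always the main form, and for some families the order depended on the length. Aldoa made up 99.2% of aldolase TPM, with Aldoc the remainder, and Ldha 85.1% of lactate dehydrogenase TPM, with Ldhb at 14.9% (means of 18 libraries). Pfkl held 46.5% of phosphofructokinase TPM, Pfkp 42.0% and Pfkm 11.5%. With principal transcript lengths, Pfkp held 58.2%, Pfkl 36.1% and Pfkm 5.75%, which puts Pfkp first; the deposited length of Pfkp is 13401 bases and the principal one 4145. Hk3, a hexokinase of myeloid cells, held 45.8%, Hk2 33.2% and Hk1 21.1% with the deposited lengths, and 39.0%, 26.6% and 34.4% with the principal lengths, so that Hk2 came last.

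Slc2a1 held only 24.8% of the TPM of 3 glucose transporter genes, and Slc2a6, a family member found in macrophages, held 70.8%. Slc2a3 held 4.40%. The enolase step, which none of the 10 genes covers, was split between Eno1 at 54.3% and Eno3 at 44.8% with the deposited lengths, and 73.5% and 26.1% with the principal ones. The liver pyruvate kinase Pklr was at 0 TPM in every library. FcgRIIb knockout PBS replicate 2 went its own way, with Slc2a6 at 13.4% of transporter TPM from 4 counts, against 63.8% to 81.0% in the other 17 libraries.

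**Figure D1:**
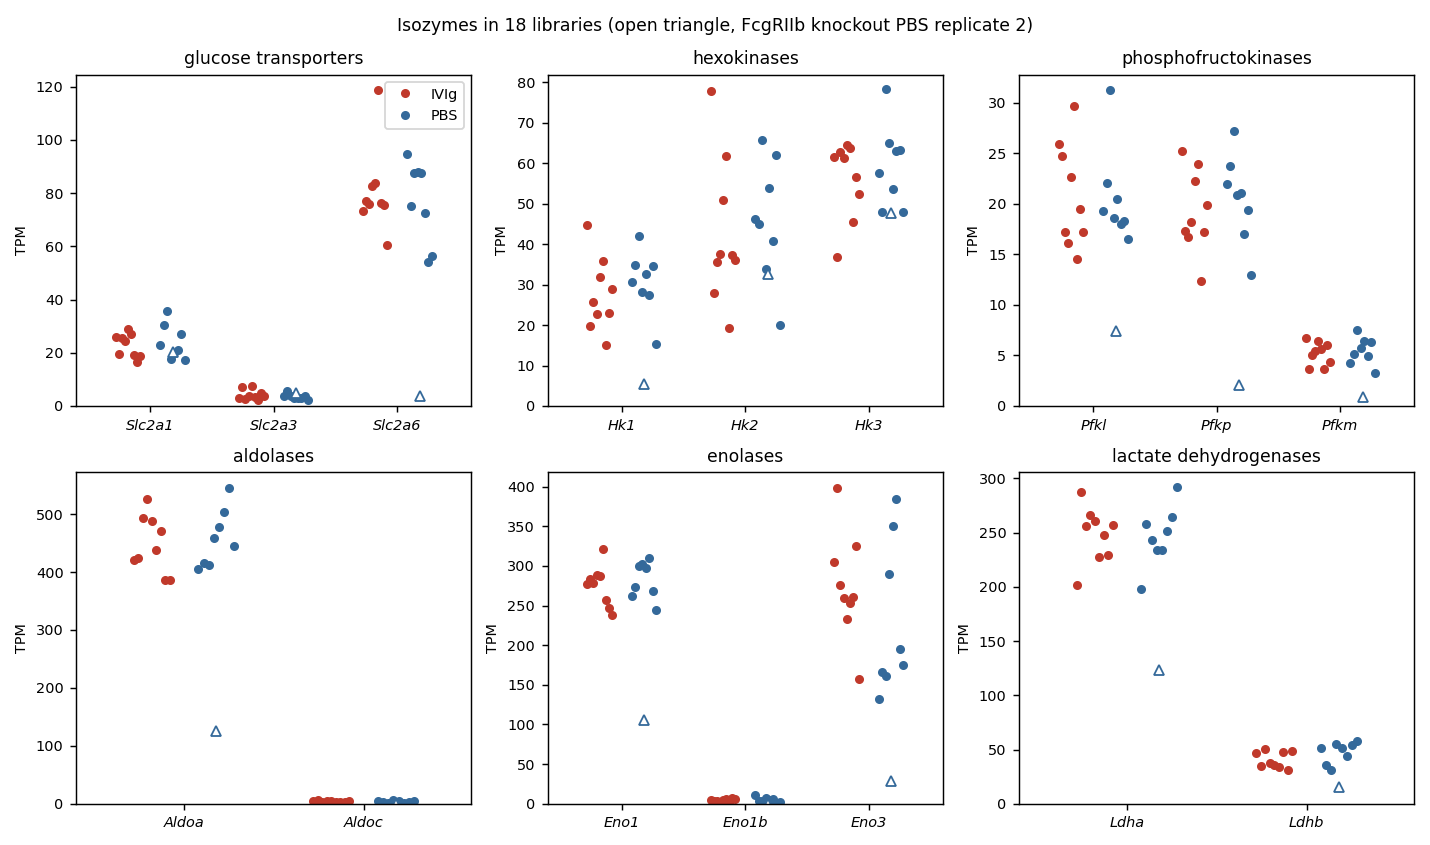
TPM of the isozymes of 6 families (y axes, from 0) in each library, IVIg in red and PBS in blue, with the shallow FcgRIIb knockout PBS replicate 2 as an open triangle. Slc2a6 lies above Slc2a1 in all libraries but the shallow one, and Aldoa far above Aldoc in all 18.

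None of the 10 genes was called with IVIg in WT monocytes. Of 17040 genes tested, 0.00587% were called (edgeR quasi-likelihood test, Benjamini-Hochberg adjusted p under 0.05), and 0 of the 10 genes were, with 0 at an unadjusted p under 0.05 and 0 with DESeq2. The share of all genes tested with an unadjusted p under 0.05 (edgeR) was 2.51%. Pgk1 had 117, 208 and 205 CPM in WT IVIg libraries and 164, 150 and 108 CPM in WT PBS libraries. The groups overlapped, and the lowest library of each, WT IVIg replicate 1 and WT PBS replicate 3, had the strongest tilt toward long genes described below. Its log2 fold change was 0.33 ± 0.25 (SE, edgeR adjusted p = 1).

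Gapdh had 330, 487 and 531 CPM in WT IVIg libraries and 349, 433 and 309 CPM in WT PBS libraries, a log2 fold change of 0.31 ± 0.30 (edgeR adjusted p = 1). Its groups overlapped as well. Of the 10 log2 fold changes 8 were above 0 and 2 below, with a median of 0.16 against 0.0087 over all genes tested. The largest fold change compatible with a 95% interval was 1.95, for Aldoa, and the smallest 0.619, for Pkm, so that 2-fold lay outside the interval of each gene. Classical monocyte markers summed to 5817 to 10853 CPM in WT IVIg libraries and 10807 to 19132 CPM in WT PBS libraries, and non-classical markers to 7428 to 9095 CPM with IVIg and 5036 to 6738 CPM with PBS. Their part in the values was not tested, and in bulk RNA a change in the mix of cells and a change per cell cannot be told apart.

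With IVIg in Dectin-1 knockout monocytes the highest value was that of Slc2a1, the glucose transporter. It had 39.4, 37.8 and 34.1 CPM in Dectin-1 knockout IVIg libraries and 25.4, 27.3 and 30.9 CPM in Dectin-1 knockout PBS libraries. All 3 IVIg libraries lay above all 3 PBS libraries, as was the case, in either direction, for 8.8% of all genes. The log2 fold change of 0.41 ± 0.21 did not pass (unadjusted p = 0.0629, edgeR adjusted p = 1).

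Pfkl followed at 0.21 ± 0.22 (edgeR adjusted p = 1), with 49.8, 56.8 and 71.6 CPM in Dectin-1 knockout IVIg libraries and 50.6, 53.6 and 50.7 CPM in Dectin-1 knockout PBS libraries. Its groups overlapped. In this comparison 0 of the 10 genes were called by edgeR or DESeq2 and 0 had an unadjusted p under 0.05, where 0% of all genes were called by edgeR. An unadjusted p under 0.05 (edgeR) was reached by 3.27% of all genes. Intervals over the 10 genes spanned 0.593-fold to 1.80-fold.

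In FcgRIIb knockout monocytes the 10 genes lay slightly lower with IVIg in 8 cases and higher in 2. By edgeR or DESeq2, 0 of the 10 were called, and 0 had an unadjusted p under 0.05 (edgeR). Among all genes tested edgeR called 0% and DESeq2 13 genes, and 3.19% had an unadjusted p under 0.05 (edgeR). Slc2a1 had 36.8, 23.8 and 26.6 CPM in FcgRIIb knockout IVIg libraries and 37.5, 32.4 and 35.1 CPM in FcgRIIb knockout PBS libraries, a log2 fold change of -0.32 ± 0.23 (edgeR adjusted p = 1). Hk2 had 63.4, 91.8 and 86.0 CPM with IVIg and 147, 88.9 and 69.3 CPM with PBS, a log2 fold change of -0.38 ± 0.30 (edgeR adjusted p = 1). The groups of both genes overlapped.

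The high Hk2 value of this group came from FcgRIIb knockout PBS replicate 1, and without it the Hk2 difference was 0.13. The median over the 10 genes was -0.053, -0.32 without the shallow replicate 2 and 0.19 without FcgRIIb knockout PBS replicate 3. Intervals ran from 0.495-fold to 1.66-fold. Averaged over the 3 genotypes, which sets 9 IVIg libraries against 9 PBS libraries, the IVIg effect was bounded most closely, between 0.734-fold and 1.41-fold over the intervals of the 10 genes. There 0 of the 10 were called by edgeR or DESeq2, and 0 had an unadjusted p under 0.05 (edgeR). Among all genes tested edgeR called 0% and DESeq2 1 gene, and 2.31% had an unadjusted p under 0.05 (edgeR). Gpi1 had the highest log2 value at 0.10 ± 0.15 and Hk2 the lowest at -0.094 ± 0.17, both with an edgeR adjusted p of 1.

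**Figure D2:**
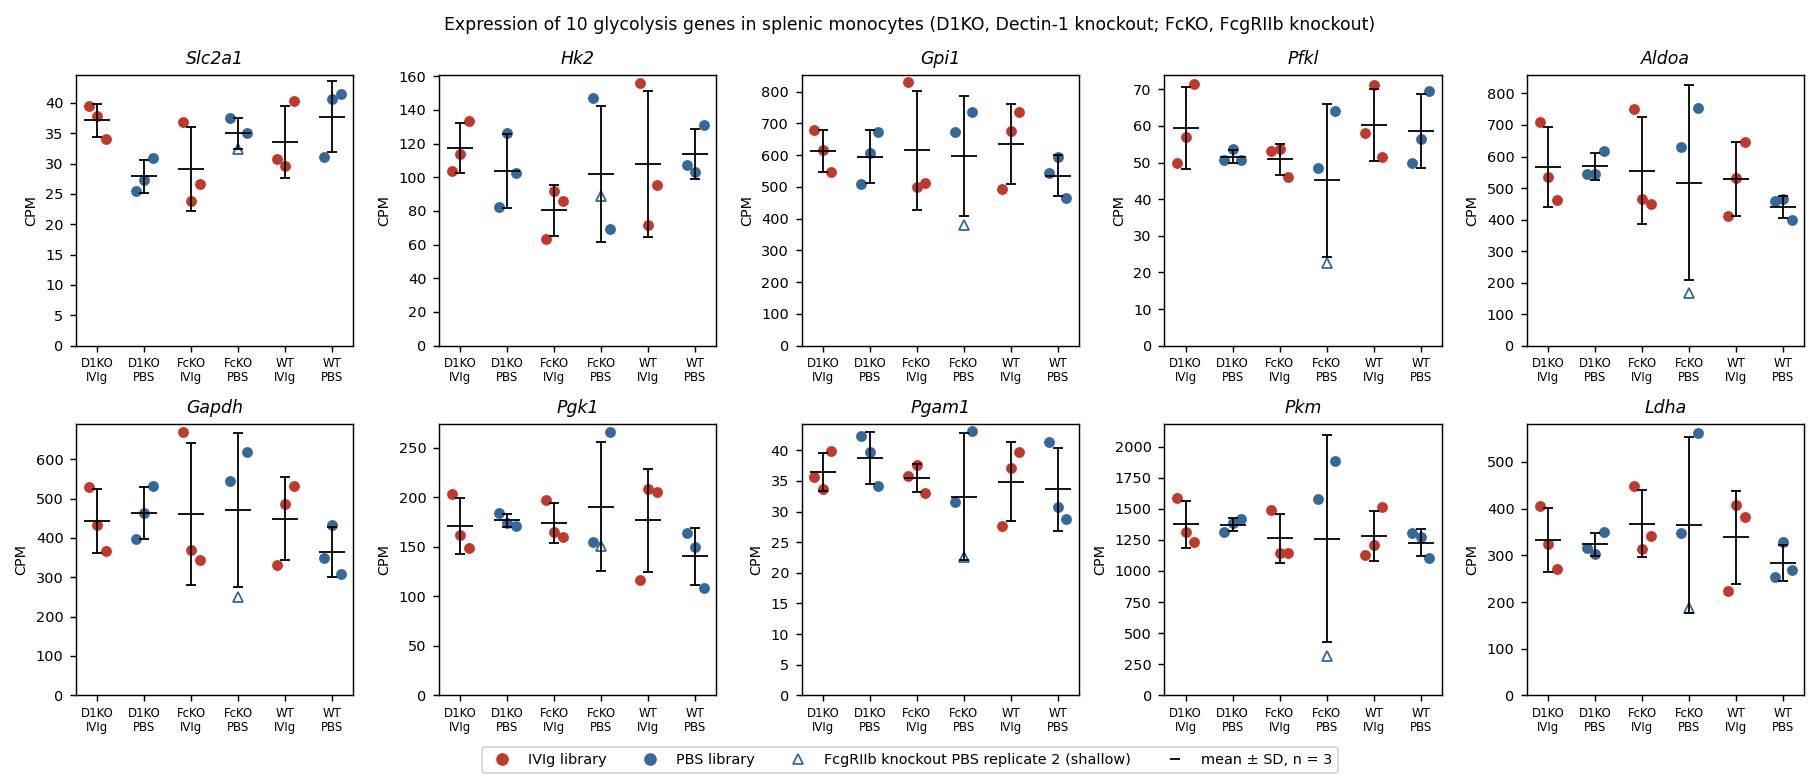
CPM of each gene (y axes, linear from 0) in the 6 groups, with 1 point per library and bars for mean ± SD (n = 3). Slc2a1 lies higher in Dectin-1 knockout IVIg than in Dectin-1 knockout PBS libraries without overlap, and the open triangle of FcgRIIb knockout PBS replicate 2 is the lowest point of 7 genes.

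Between Dectin-1 knockout and WT monocytes under PBS, Slc2a1 was the one gene of the 10 with an unadjusted p under 0.05 (edgeR). The share of all genes tested was 4.03%, and none of the 10 passed adjustment. Of all genes tested, 0.0411% were called by edgeR, 0 of the 10 were, and 0 with DESeq2. Slc2a1 had 25.4, 27.3 and 30.9 CPM in Dectin-1 knockout PBS libraries and 31.0, 40.7 and 41.5 CPM in WT PBS libraries. The groups did not overlap, though the nearest libraries differed by little. Its log2 fold change was -0.44 ± 0.21 (unadjusted p = 0.0465, edgeR adjusted p = 0.909).

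Aldoa, Pgk1 and Pkm were higher in all 3 Dectin-1 knockout PBS libraries than in any WT PBS library. Aldoa had 545, 545 and 618 CPM in Dectin-1 knockout PBS libraries and 458, 464 and 400 CPM in WT PBS libraries, and Pgk1 had 184, 175 and 172 CPM in Dectin-1 knockout PBS libraries and 164, 150 and 108 CPM in WT PBS libraries. Groups did not overlap for 4 of the 10 genes, against 16.3% of all genes. The log2 fold changes were 0.37 ± 0.33 for Aldoa, 0.33 ± 0.25 for Pgk1 and 0.16 ± 0.36 for Pkm, each with an edgeR adjusted p of 0.909 or higher. In this comparison fold changes fell with gene length over 5048 abundant genes (Spearman rho -0.515). After removal of that trend Pgk1 had a log2 fold change of 0.16 and Slc2a1 of -0.52 (edgeR adjusted p = 0.941 for both).

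In FcgRIIb knockout against WT monocytes under PBS the highest values were those of Pgk1 and Ldha. Of the 10 genes, 0 were called by edgeR or DESeq2 and 0 had an unadjusted p under 0.05 (edgeR). Among all genes tested edgeR called 0% and DESeq2 175 genes, and 9.64% had an unadjusted p under 0.05 (edgeR). Pgk1 had 155, 151 and 266 CPM in FcgRIIb knockout PBS libraries and 164, 150 and 108 CPM in WT PBS libraries. Ldha, the lactate dehydrogenase subunit, had 348, 186 and 562 CPM in FcgRIIb knockout PBS libraries and 254, 328 and 269 CPM in WT PBS libraries. Both rest on FcgRIIb knockout PBS replicate 3, and the groups overlapped.

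The log2 fold changes were 0.49 ± 0.26 for Pgk1 (unadjusted p = 0.0723, edgeR adjusted p = 0.534) and 0.44 ± 0.29 for Ldha (edgeR adjusted p = 0.587). Without FcgRIIb knockout PBS replicate 3 they were 0.12 for Pgk1 and 0.0031 for Ldha. In this comparison, too, fold changes fell with gene length (Spearman rho -0.593 over 5048 genes), and after removal of the trend Pgk1 had 0.12 (edgeR adjusted p = 0.815) and Ldha 0.26 (edgeR adjusted p = 0.704). The median over the 10 genes was 0.15, 0.44 without replicate 2 and -0.0083 without replicate 3. The intervals of 4 genes reached 2-fold, with an upper end of 2.09.

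Under IVIg the 10 genes had median log2 fold changes of 0.024 for Dectin-1 knockout against WT and -0.024 for FcgRIIb knockout against WT. Of all genes, 0.0528% were called for Dectin-1 knockout against WT and 0.0117% for FcgRIIb knockout against WT by edgeR, and in each 0 of the 10 genes were, with 0 by DESeq2 and 0 at an unadjusted p under 0.05. The shares of all genes with an unadjusted p under 0.05 (edgeR) were 3.46% and 5.45%. In Dectin-1 knockout against WT the largest log2 fold changes were 0.14 ± 0.21 for Slc2a1 and 0.12 ± 0.28 for Hk2 (edgeR adjusted p = 1 for both).

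Hk2 had 104, 114 and 133 CPM in Dectin-1 knockout IVIg libraries, 63.4, 91.8 and 86.0 CPM in FcgRIIb knockout IVIg libraries and 156, 71.9 and 95.7 CPM in WT IVIg libraries. The WT IVIg libraries overlapped those of both knockouts. For FcgRIIb knockout against WT, Hk2 had a log2 fold change of -0.42 ± 0.29 and Pfkl of -0.25 ± 0.22 (edgeR adjusted p = 0.938 for both). With 1 library left out the Hk2 value ran between -0.65, without WT IVIg replicate 2, and -0.057, without WT IVIg replicate 1.

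The difference of the IVIg effect between genotypes was the least precisely measured. For Dectin-1 knockout minus WT, Slc2a1 had 0.58 ± 0.29 on the log2 scale (unadjusted p = 0.0599, edgeR adjusted p = 0.999) and Pgk1 -0.38 ± 0.35 (edgeR adjusted p = 0.999). The Slc2a1 values above, for IVIg in the Dectin-1 knockout and for Dectin-1 knockout against WT under PBS, use the same Dectin-1 knockout PBS libraries. They are therefore not independent of this difference or of each other. For FcgRIIb knockout minus WT all 10 values were below 0, with a median of -0.24 (-0.49 without FcgRIIb knockout PBS replicate 2 and -0.0035 without replicate 3), and reached -0.51 ± 0.36 for Pgk1 and -0.40 ± 0.42 for Gapdh (edgeR adjusted p = 1 for both). The median over all genes tested was 0.0098, and values rose with gene length over 5048 abundant genes (Spearman rho 0.438). The part of length was not tested. Levels of several of the 10 genes went up and down together, as described below, so the 10 signs are not independent. The differences for the 2 knockouts use the same WT libraries, so the 2 sets of values are not independent. In each, 0 of the 10 were called by edgeR or DESeq2 and 0 had an unadjusted p under 0.05 (edgeR). Among all genes tested edgeR called 0% and DESeq2 1 gene in each. Unadjusted p values under 0.05 (edgeR) were seen for 3.74% and 2.86% of all genes. The intervals of 7 and 6 of the 10 genes included a 2-fold difference.

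**Figure D3:**
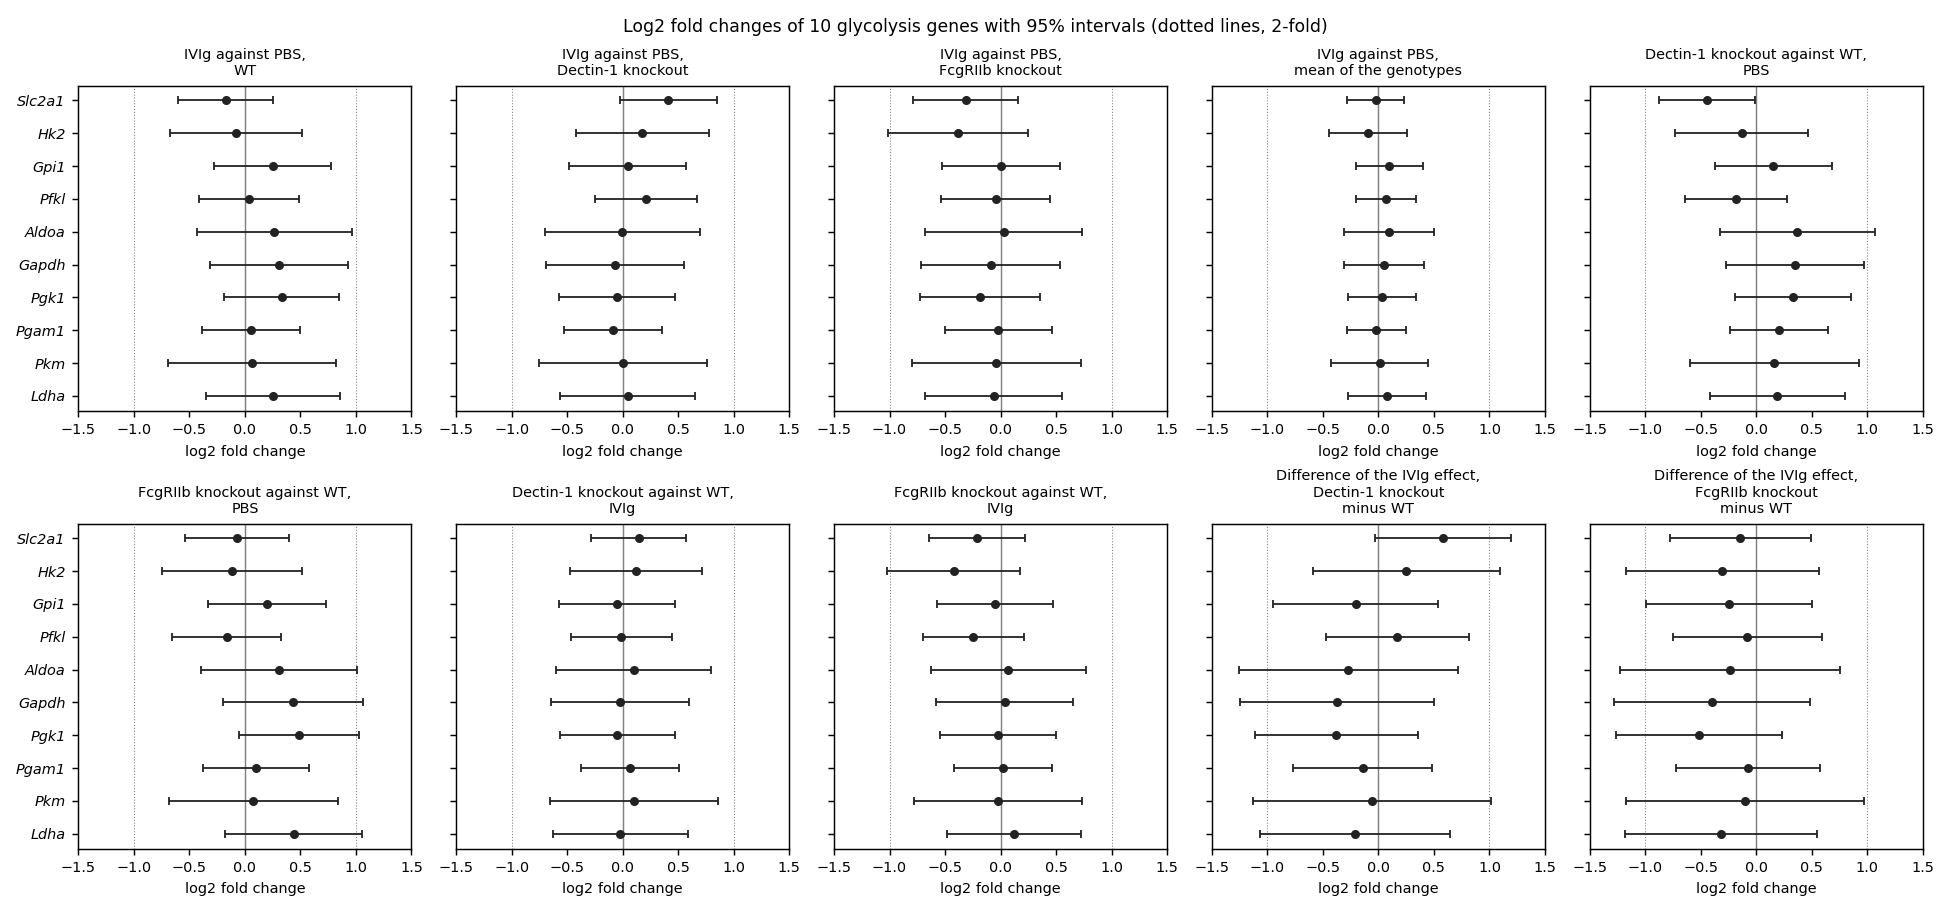
Log2 fold change of each gene (x axis) with its 95% interval from edgeR in the 10 comparisons, with dotted lines at 2-fold. The interval of Slc2a1 in Dectin-1 knockout against WT under PBS is the only one that leaves out 0, and those averaged over the genotypes are the narrowest.

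One library set the lowest values of most of the 10 genes. In FcgRIIb knockout PBS replicate 2, Pkm had 315 CPM, 0.240 of the median of the other 17 libraries, and Aldoa 166 CPM, 0.312 of it. Their 95% Poisson intervals, 275 to 359 CPM and 138 to 199 CPM, cover counting error only and lie under the lowest of the other libraries, 1103 CPM for Pkm and 400 CPM for Aldoa. Pgk1, Slc2a1 and Hk2 stood at 0.915, 0.951 and 0.863 of the median.

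Uneven ratios were common there, as the quartiles of the ratio over 5048 abundant genes were 0.445 and 1.35, which places Pkm at percentile 11.3 and Slc2a1 at 57.3. The 10 genes together took 0.159% of the counts of this library and 0.313% to 0.432% of the others. Monocyte markers summed to 33217 CPM or more in each library of its group. The part of depth in the low values was not tested.

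**Figure D4:**
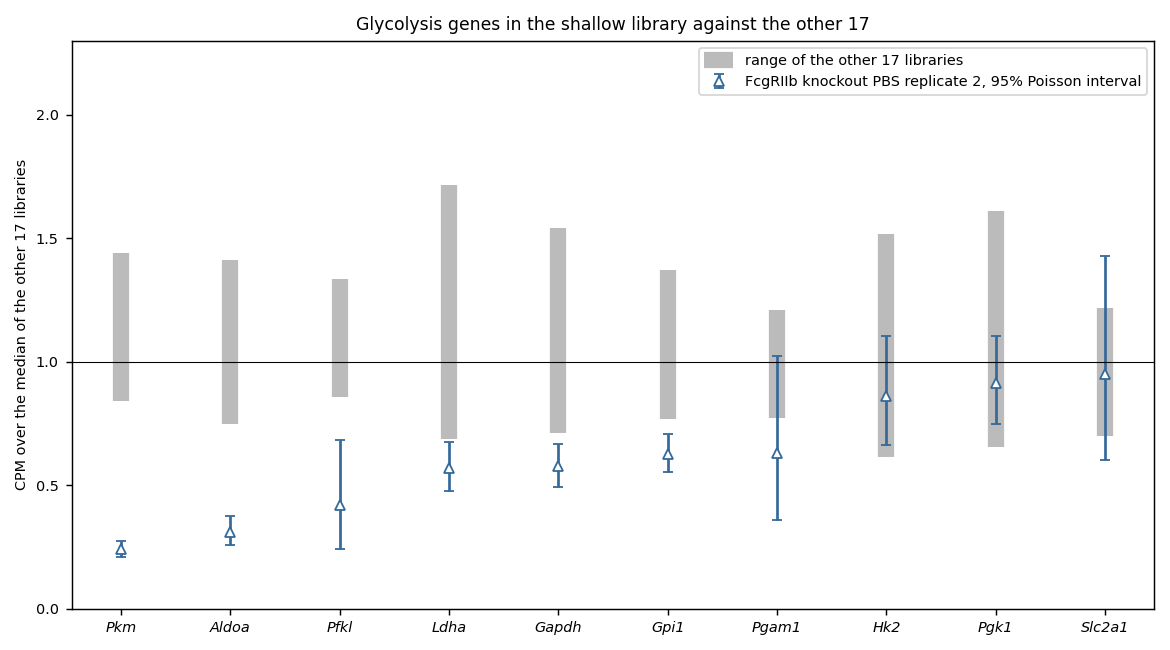
CPM of each gene in FcgRIIb knockout PBS replicate 2 over the median of the other 17 libraries (open triangles, 95% Poisson interval), with the range of those 17 as grey bars. Pkm and Aldoa lie lowest, at 0.240 and 0.312, and Hk2, Pgk1 and Slc2a1 lie within the grey bars.

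Across the other 17 libraries, Aldoa, Gapdh, Pkm, Pgk1, Gpi1 and Ldha went up and down together. Relative to its own mean, Pkm lay on the same side as Aldoa in 16 of 17 libraries, Gapdh and Pgk1 in 15, Gpi1 in 14 and Ldha in 13. Hk2 did so in 7 and Pfkl in 4. FcgRIIb knockout PBS replicate 3 was the highest library for Aldoa, Pgk1, Pgam1, Pkm and Ldha, while Hk2 was highest in WT IVIg replicate 1 and lowest in FcgRIIb knockout IVIg replicate 1.

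The same libraries differed in a trend of all abundant genes with exon length. The Spearman correlation of a library's deviations with length ran between -0.653 and 0.582, over 5048 genes that share the library and its depth. In the 6 libraries below -0.1, where short genes were high, Gapdh, Pgk1, Gpi1 and Ldha lay above their own means in 6 and Hk2 in 2. In the 9 libraries above 0.1, Hk2 lay above its mean in 8 and Pgk1 in 1.

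Gpi1 has 6452 bases of exon by the deposited length, Hk2 5969 and Pgk1 2244. Their principal transcripts have 2884, 5513 and 1825 bases. Without the shallow library, the pooled SD within groups on the log2 scale was smallest for Pkm at 0.18, 0.33 for Gapdh and largest for Hk2 at 0.39, with a median of 0.26 over abundant genes. After the trend was removed it was lower for 7 of the 10 genes, among them Pgk1 at 0.17, against 0.32 before, and higher for Gpi1 at 0.35, against 0.26 before, Pfkl at 0.24, against 0.21, and Pkm at 0.20, against 0.18. It was then smallest for Aldoa at 0.17 and largest for Gpi1, with a median of 0.23 over abundant genes. The trend was fitted and removed at the deposited lengths, which for Pfkl and Pkm are 6675 and 5001 bases. Principal transcripts of Pfkl and Pkm have 3730 and 2432 bases. The part of the length used in these values was not tested. Gapdh, often used as a loading reference, ranged over 2.16-fold in CPM across these 17 libraries and stood at percentile 67.6 of the abundant genes in SD.

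**Figure D5:**
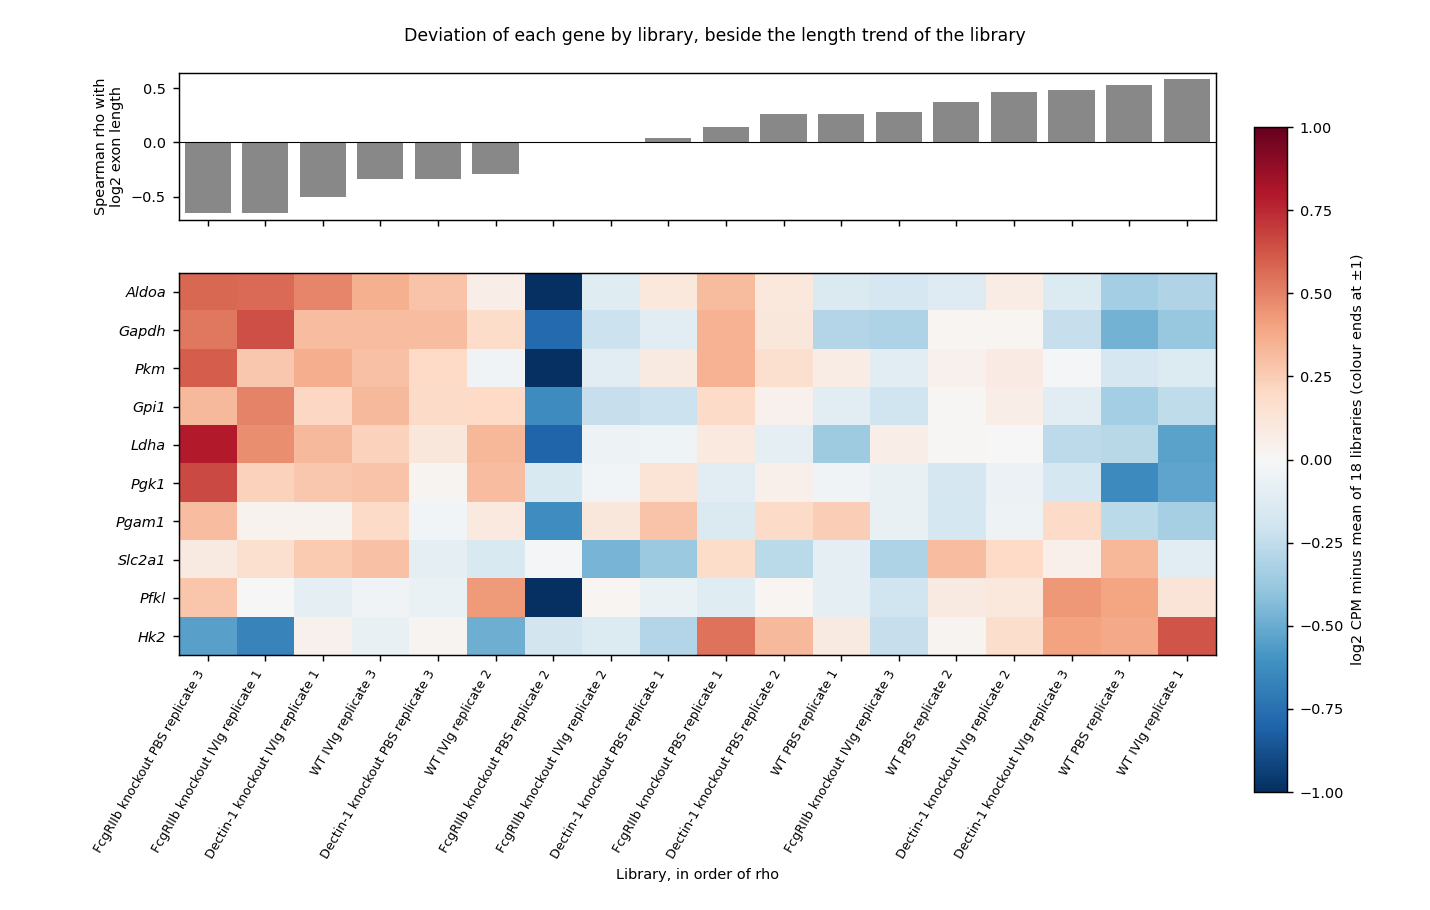
Deviation of log2 CPM from the mean of 18 libraries for each gene (colour, ending at 1 in either direction) by library, below the Spearman rho of that library's deviations with log2 exon length (bars). Libraries run in order of rho, and Hk2 is lowest at the left end where Aldoa, Gapdh, Pkm, Gpi1, Ldha and Pgk1 are high.

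The genes whose pattern was most like the mean of the 10 standardised profiles, by Pearson r over 18 libraries among 5038 abundant genes, were Tufm (0.971), Mtch1 (0.962), Coro1a (0.956), Ergic3 (0.954) and Emc8 (0.953). Tufm encodes a mitochondrial translation factor and Coro1a an actin-binding protein of leukocytes. Without the shallow library they were Cyba (0.944), Rpl28 (0.941), Cotl1 (0.935), Cox5b (0.930) and Tufm (0.929), so Tufm alone was in both lists. The values describe libraries that share depth and length trend.

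Gapdh lies on chromosome 6 (125138678 to 125143430, GRCm39), 4.30 Mb from Clec7a, the targeted gene of the Dectin-1 knockout. Tpi1, Slc2a3, Eno2 and Tigar also lie within 10 Mb, and no gene of glycolysis on the lists lies that near to Fcgr2b. Gapdh had 398, 463 and 531 CPM in Dectin-1 knockout PBS libraries and 349, 433 and 309 CPM in WT PBS libraries, which overlap, and a log2 fold change of 0.35 ± 0.30 (edgeR adjusted p = 0.909).

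Of 14 annotated copies of 6 of the 10 genes in the table, Gpi-ps had a median of 0.758% of the Gpi1 count and Pgam1-ps2 0.651% of the Pgam1 count. Pgam1-ps1 reached 37.5% of the 16 Pgam1 counts of the shallow library. Reads shared between near-identical copies are uncertain for the genes that have one.

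Among other genes of the pathway, 0 of 21 tested were called in any comparison by edgeR. Eno3, an enolase known from muscle and also on the non-classical monocyte marker list summed above, stood out in unadjusted values. It had 178, 297 and 216 CPM in WT IVIg libraries and 89.2, 111 and 93.7 CPM in WT PBS libraries, without overlap, and a log2 fold change of 1.23 ± 0.35 (unadjusted p = 0.0021, edgeR adjusted p = 1). In Dectin-1 knockout PBS libraries it had 206, 239 and 282 CPM, a log2 fold change of 1.30 ± 0.35 over WT PBS (unadjusted p = 0.00134, edgeR adjusted p = 0.715). The comparisons share the WT PBS libraries, and its difference of the IVIg effect, Dectin-1 knockout minus WT, was -1.72 ± 0.49 (edgeR adjusted p = 0.999). The non-classical sum, which includes Eno3, was 6377 to 7542 CPM in Dectin-1 knockout PBS libraries and 5036 to 6738 CPM in WT PBS libraries. With IVIg it was 5584 to 7701 CPM in Dectin-1 knockout libraries and 7428 to 9095 CPM in WT libraries. The part of the mix of monocytes in the Eno3 values was not tested.

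The regulators of the pathway likewise gave 0 called genes by edgeR in each of the 10 comparisons, among 8 genes of HIF-1 and its regulators, 11 HIF-1 targets outside glycolysis and 13 of mTOR, AKT and MYC. Hif1a, the oxygen-regulated subunit, had a log2 fold change of -0.72 ± 0.27 in FcgRIIb knockout against WT under PBS (edgeR adjusted p = 0.503) and -0.56 ± 0.25 with IVIg in WT (edgeR adjusted p = 1). Mlx, a partner of the glucose-sensing factor ChREBP, had 0.60 ± 0.23 in FcgRIIb knockout against WT under PBS (edgeR adjusted p = 0.503), where 11 of the 13 genes of its list were below 0. So were 11 in Dectin-1 knockout against WT under PBS and 11 in FcgRIIb knockout against WT under IVIg. In the order given, the medians over all genes tested were -0.048, -0.021 and -0.016. Fold changes fell with gene length in each (Spearman rho -0.593, -0.515 and -0.508), and the part of length was not tested. Pdk1, the kinase that shuts pyruvate dehydrogenase and a HIF-1 target, had 0.91 ± 0.36 with IVIg in WT (edgeR adjusted p = 1).

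Branches that leave glycolysis gave 0 called genes too, over 7 genes of the pentose phosphate pathway, 12 of pyruvate entry into mitochondria and 8 of gluconeogenesis and glycogen. All 12 of the pyruvate entry genes had log2 fold changes above 0 with IVIg in WT (median 0.20, all genes tested 0.0087). They did so too in Dectin-1 knockout against WT under PBS (median 0.23, all genes tested -0.021), which shares the WT PBS libraries. Among the 12 are Pdk1, Pdk2 and Pdk3, kinases that shut pyruvate dehydrogenase, so the signs do not tell whether pyruvate entry rose. Fold changes of 5048 abundant genes fell with length in both comparisons (Spearman rho -0.416 and -0.515). The part of length in the signs was not tested. With IVIg 5 of these 12 were above 0 in the Dectin-1 knockout and 4 in the FcgRIIb knockout. In Dectin-1 knockout against WT under PBS, 7 of 7 pentose phosphate genes and 8 of 8 genes of gluconeogenesis and glycogen were above 0 as well. The smallest unadjusted p (edgeR) there was 0.161 for Taldo1 in the first list and 0.213 for Gbe1 in the second. Pcx, in the second list, averaged 0.257 TPM over all libraries. The length trend and the all-gene median of this comparison, given above, apply to these signs too. Mpc1, a subunit of the mitochondrial pyruvate carrier, had 0.97 ± 0.36 in FcgRIIb knockout against WT under PBS (edgeR adjusted p = 0.503). Pck2, which makes phosphoenolpyruvate in mitochondria, had 0.61 ± 0.25 with IVIg in WT (edgeR adjusted p = 1), and Taldo1 of the pentose phosphate pathway 0.38 ± 0.26 in Dectin-1 knockout against WT under PBS (edgeR adjusted p = 0.909).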

How the data were processed

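RNA of sorted splenic monocytes was sequenced in 18 libraries, 3 mice in each of 6 groups per the series' design text. Libraries were made with a stranded kit per the labels' protocols. Per the submitters' processing notes, STAR mapped the reads to GRCm39. The authors deposited raw counts per gene with summed exon lengths in bases, which featureCounts 2.0.2 produced from Ensembl release 104 genes per the file headers. The recorded command counts a read for each gene it overlaps, counts primary alignments of reads that map to several places, and sets no strand option, so overlapping, antisense and near-identical genes are uncertain. A further 18 columns of the table, whose names match no sample, were left out. Replicate numbers were given in accession order as names. Some title codes occur on 2 libraries and are unexplained, so that separate mice are known from the design text alone, and p-values measure the spread between these libraries.

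The 17040 genes that passed filterByExpr were scaled by TMM and tested with edgeR 4.0.16 (R 4.3.3, quasi-likelihood F-test, legacy setting off) in 1 model over 18 libraries with 12 residual degrees of freedom. Calls needed a Benjamini-Hochberg adjusted p under 0.05 over all genes within each of 10 comparisons. The standard error is the absolute log2 fold change over the square root of F, and intervals are 95%. Log2 CPM used a prior count of 2. TPM used the deposited lengths. Length trends used the deposited lengths, genes with an average log2 CPM of at least 5 and a spline with 4 degrees of freedom. The test was tested on simulated data. Promoters are from RefSeq (GRCm38.p6), and their coordinates were not mixed with those of the counts. Figures were drawn with matplotlib 3.10.9 in Python 3.11.15.

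The 10 genes and all lists were chosen with earlier results of these data known. All 10 genes were named with levels, and statistics were given for called genes or else for the 2 with the smallest unadjusted p in a comparison. Of each list the called genes or 1 with the smallest unadjusted p were eligible, and examples from these are given. Aldoa and Pkm in Dectin-1 knockout against WT under PBS, and Gapdh there, were added after their values were seen. The 5 most alike genes, isozymes, genes within 10 Mb of the targeted genes and the targeted genes themselves were also named. Alternatives were RLE size factors, DESeq2 1.42.0, no low-count filter, a stricter one (1 CPM in 3 libraries), own groups only, removal of the length trend, and each library left out in turn. Principal transcript lengths (levels and isozyme shares), the spread with the length trend removed, and likeness without the shallow library were added after the data were seen.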

Additional observations from a re-analysis of the deposited data

How the results depend on the processing

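In each of the 10 comparisons 0 of the 10 genes were called under every alternative run, and with each library left out in turn (0 to 0). With 1 library left out their median log2 fold change changed sign in 6 comparisons, with no test of it. It came to -0.030 to -0.0020 for IVIg over the genotypes (4 libraries, lowest without FcgRIIb knockout PBS replicate 2), to -0.092 without IVIg replicate 1 and -0.027 without PBS replicate 1 for IVIg in the Dectin-1 knockout, and to 0.19 without PBS replicate 3 and 0.021 without IVIg replicate 3 for IVIg in the FcgRIIb knockout, where it reached -0.32. It came to -0.0083 for FcgRIIb knockout against WT under PBS without FcgRIIb knockout PBS replicate 3. Under IVIg it came to -0.067 without WT replicate 1 and -0.052 without Dectin-1 knockout replicate 1 for Dectin-1 knockout against WT, and to 0.024 to 0.10 for FcgRIIb knockout against WT (4 libraries, highest without WT replicate 3). For the difference of the IVIg effect in the FcgRIIb knockout minus WT it ran between -0.49 and -0.0035. Hk2 ran between -0.69 and 0.13 for IVIg in the FcgRIIb knockout, between -0.22 and 0.077 for IVIg over the genotypes, both highest without FcgRIIb knockout PBS replicate 1, and between -0.11 and 0.48 for Dectin-1 knockout against WT under IVIg, lowest without WT IVIg replicate 2, and the cause was not tested.

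Counts of called genes over the whole table were small and moved more. By DESeq2 they were 1, 2, 13, 1, 14, 175, 23, 3, 1 and 1 in the order IVIg in WT, Dectin-1 knockout, FcgRIIb knockout and their mean, knockouts against WT under PBS (Dectin-1, then FcgRIIb), the same under IVIg, and the differences of the IVIg effect in the same order. With no filter they were 10 for FcgRIIb knockout against WT under PBS and 15 for Dectin-1 knockout against WT under IVIg. With 1 library left out they reached 13 for IVIg in the Dectin-1 knockout, 40 for FcgRIIb knockout against WT under PBS, 28 and 6 for the Dectin-1 and FcgRIIb knockouts against WT under IVIg.

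No paired analysis was possible because the labels give no replicate numbers. Depth limits the shallow library, where Slc2a1 had 23 counts and Pfkl and Pgam1 16 each. In CPM in place of TPM the highest over the lowest group mean was 1.35 for Slc2a1, 1.36 for Pgk1 and 1.46 for Hk2, the largest of the 10. In TPM the group means ran from 18.2 to 29.5 for Slc2a1, 169 to 194 for Pgk1 and 30.9 to 52.4 for Hk2. The mean level of Pgam1 relative to Pkm was 7.42% with the deposited and 4.03% with the principal length.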
